A study of Mus musculus with 24 samples.

Results

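The 10 genes described here make, conjugate, move and sense bile acids: Cyp7a1, Cyp8b1, Cyp27a1, Slc27a5 and Baat for synthesis and conjugation, Abcb11, Slc10a1 and Slco1b2 for transport, and Nr1h4 and Nr0b2 for sensing. They were chosen by symbol, through the RefSeq accession of each array probe, out of 21368 genes with a named probe. Slc10a1 and Slc27a5 each had a second probe, so 12 of 55681 probes stood for the 10 genes. RNA came from liver, brain, heart and skeletal muscle of the same 6 female mice, on C57BL6 backcrossed 4 times. Mice A, B and C carried the Rap1 I312R knockin (KI, labelled RAP1 MUT), made with Crispr/Cas9, which changes 1 amino acid of RAP1 so that it no longer binds TRF2 at telomeres. Mice D, E and F were wild-type (WT) littermates. Mice C and F were 14 months old and the others 15 months. Each tissue of each mouse was hybridised to its own 1-colour array, giving 24 arrays in 8 groups of 3, and the knockin was carried by every cell rather than by a chosen cell type.

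Bile acids are made from cholesterol in hepatocytes. Cyp7a1 opens the main route, Cyp27a1 opens a second route and hydroxylates the side chain, and Cyp8b1 sets the share of cholic acid. Slc27a5 and Baat then join the acids to taurine or glycine, Abcb11 (the bile salt export pump) passes them into bile, and Slc10a1 and Slco1b2 take them back up from blood. Nr1h4 encodes FXR, the nuclear receptor for bile acids, and Nr0b2 encodes SHP, an FXR target that represses Cyp7a1 and Cyp8b1.

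Shown here are the stretches just before a start site of 3 of these genes. They hold short motifs of the receptors that are known to act on this pathway. The upstream sequences come from RefSeq (GRCm38.p6), which held 7 of the 10 genes at 8 start sites, and Cyp7a1, Baat and Slc27a5 were not matched. In the window from 250 bases before to 50 after a start, GGNCA and TGACC around any single base, an inverted repeat of a nuclear receptor core of the kind FXR binds, occurred in 0.237% of 32851 promoters, on either strand, and upstream of Abcb11 and Slco1b2 among the genes here. The letters CAAAGTCCA, of the hepatocyte nuclear factor 4 type, occurred in 0.475% of promoters and upstream of Cyp8b1. The motifs overlap in none of the 3 stretches and were chosen after these sequences had been seen. Each stretch covers the 120 bases before a start site, on the gene's strand, with the motif in capitals. They lie at chr2:69342617-69342736 (minus strand) for Abcb11, chr6:141629398-141629517 (plus strand) for Slco1b2 and chr9:121916306-121916425 (minus strand) for Cyp8b1. The annotated Slco1b2 gene begins at chr6:141629452, within its stretch, which thus precedes a start site inside the gene. A match describes these letters and no binding was measured.
Abcb11: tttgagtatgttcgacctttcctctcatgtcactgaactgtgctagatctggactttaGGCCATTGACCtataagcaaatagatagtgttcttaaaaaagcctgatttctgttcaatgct
Slco1b2: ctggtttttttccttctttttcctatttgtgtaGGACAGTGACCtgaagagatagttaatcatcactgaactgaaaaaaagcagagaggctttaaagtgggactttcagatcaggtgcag
Cyp8b1: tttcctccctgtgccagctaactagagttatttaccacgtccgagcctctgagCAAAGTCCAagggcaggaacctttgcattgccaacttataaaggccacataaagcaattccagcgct

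Levels are log2 signals after each array's 75th percentile was subtracted, so a difference of 1 is a doubling, and levels of different probes are not set against each other. Between 49.4% and 68.4% of probes per array were well above background. Terf2ip, the gene that encodes RAP1, lay between 0.11 and 1.25 on the KI arrays and between 0.46 and 1.46 on the WT arrays, and this level does not check the substitution. Tissue labels were borne out by defining genes: Alb lay at 9.02 to 10.21 in liver, Myh6 at 8.70 to 9.03 in heart and Ckm at 7.96 to 9.14 in muscle, and 12 neuron and glia markers summed to a linear level of 373 to 445 in brain and of at most 249 elsewhere. Some arrays carried transcripts of another tissue. The summed linear level of 12 hepatocyte markers was 502 in the brain of KI mouse C and at most 135 in the other brains. That of 12 skeletal muscle markers was 34.7 in the liver of the same mouse and at most 1.16 in the other livers. In KI livers the summed level of 12 Kupffer cell and macrophage markers was 143 to 158, against 85.5 to 108 in WT livers. Of these 12 markers, 10 were higher in KI at an unadjusted limma p under 0.05. Among all genes tested in liver, 11.7% were at that cut in either direction. After adjustment 0 of the 12 markers passed, with a smallest limma adjusted p of 0.358. The hepatocyte sum lay between 4896 and 5743 in KI and between 3398 and 6540 in WT livers. In whole-tissue RNA, fewer cells of a type and less RNA per cell cannot be told apart.

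The first question was whether the knockin changed the pathway in liver. Of the 10 genes, 0 passed the threshold (limma, Benjamini-Hochberg adjusted p under 0.05), against 0.00% of 14092 genes tested. At an unadjusted p under 0.05 there was 1 gene, Cyp27a1, against 11.7% of all genes. The genotypes did not overlap for 3 genes, Cyp27a1, Baat and Nr1h4, all lower in KI, against 19.7% of all genes in either direction. The median difference over the 10 genes was 0.03 and that over all genes 0.04. The plot of single livers shows the level of every mouse.

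**Figure D1:**
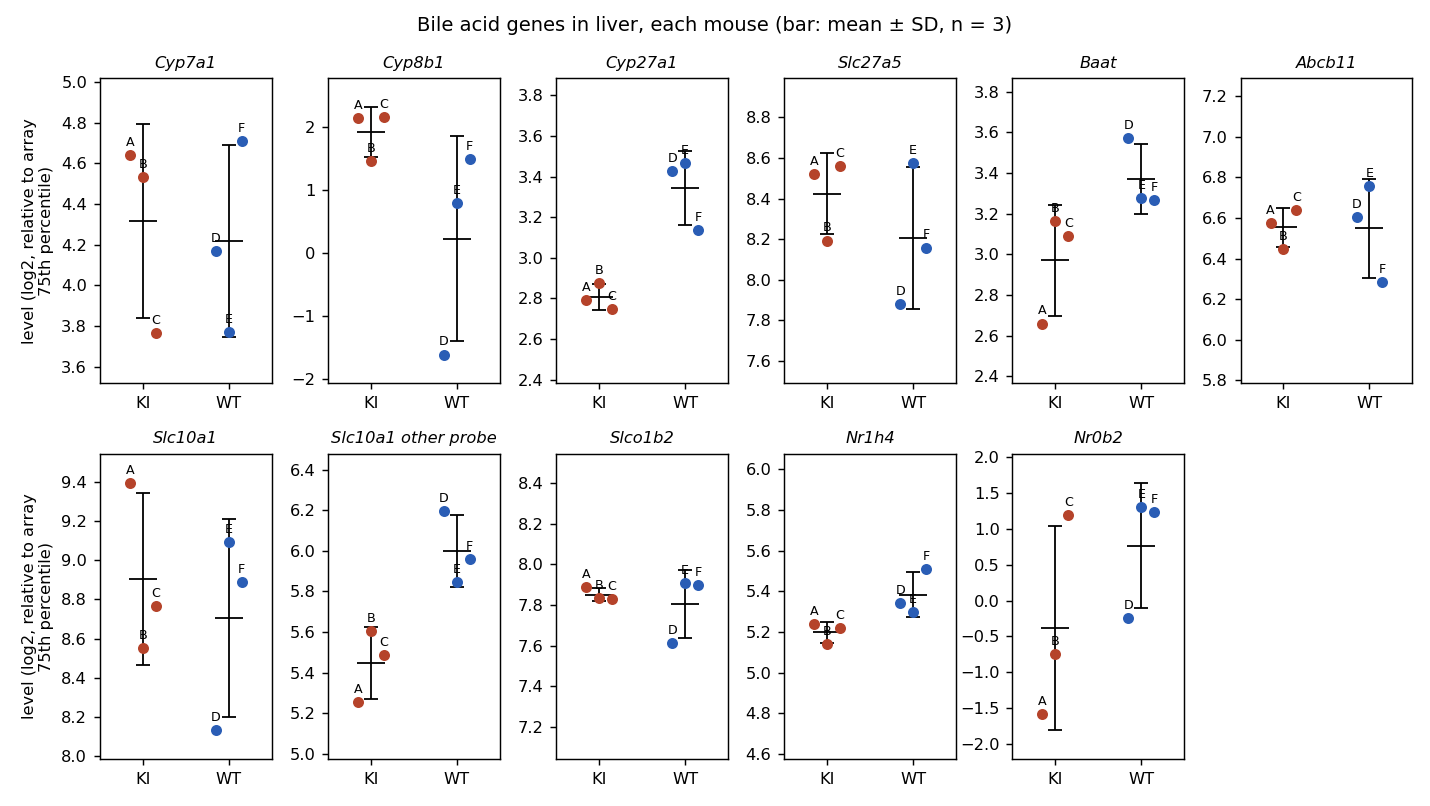
Level (log2, relative to the array's 75th percentile) of each bile acid gene by liver, of KI mice A to C and WT mice D to F, with the mean and SD of 3 mice. The KI and WT points are apart for Cyp27a1, Baat, Nr1h4 and the second Slc10a1 probe, and the WT point D is far below the others for Cyp8b1.

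Cyp27a1, a mitochondrial sterol hydroxylase, had levels of 2.79, 2.88 and 2.75 in KI livers (A, B and C) and of 3.43, 3.47 and 3.14 in WT livers (D, E and F). The 3 KI livers sat close together and all below the lowest WT liver. The means were 2.81 ± 0.06 and 3.34 ± 0.18 (SD, n = 3 each), a difference of -0.54 (SE 0.13, 95% interval -0.86 to -0.21) or 1.45-fold (limma adjusted p = 0.358). Before adjustment the limma p was 0.00593. Leaving out each mouse in turn gave -0.64 to -0.47.

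Cyp7a1, the rate-limiting enzyme of the main route, had levels of 4.64, 4.53 and 3.77 in KI and of 4.17, 3.77 and 4.71 in WT livers in the same order of mice. The lowest livers, C and E, were of different genotypes, and the groups overlapped across their whole range. The difference was 0.10 (SE 0.32, 95% interval -0.67 to 0.86, limma adjusted p = 0.907), so this design left room for changes of up to about these bounds. Cyp7a1 varied more within a genotype (SD 0.48) than 88.0% of the genes tested in liver, whose median SD was 0.21.

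Cyp8b1, which hydroxylates the steroid ring, had levels of 2.15, 1.46 and 2.15 in KI and of -1.61, 0.80 and 1.49 in WT livers. WT mouse D lay far under every other liver, and KI mouse B lay just under WT mouse F. The difference was 1.69 (SE 0.76, limma adjusted p = 0.440), and without WT mouse D it was 0.78 (adjusted p = 0.502). The within-genotype SD of Cyp8b1, 1.18, exceeded that of 98.7% of genes. Its upstream stretch with the CAAAGTCCA motif is printed above.

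Conjugation was measured through Slc27a5 (bile acid-CoA ligase) and Baat (the transferase that adds the amino acid). Baat had levels of 2.66, 3.16 and 3.09 in KI and of 3.57, 3.28 and 3.27 in WT livers, so the lowest WT liver was just above the highest KI liver. The difference was -0.40 (SE 0.18, limma adjusted p = 0.437), and it was -0.25 without KI mouse A. For Slc27a5 the KI livers read 8.52, 8.19 and 8.56 and the WT livers 7.88, 8.57 and 8.16, with overlapping groups. Its difference was 0.22 (SE 0.21, limma adjusted p = 0.651) and -0.004 (SE 0.16) on its second probe. On the first probe it was 0.058 without WT mouse D, 0.34 without KI mouse B and 0.40 without WT mouse E.

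Among transporters, the export pump Abcb11 had levels of 6.57, 6.45 and 6.64 in KI and of 6.61, 6.76 and 6.28 in WT livers, and Slco1b2, the hepatocyte uptake carrier of the OATP family, had levels of 7.89, 7.84 and 7.83 in KI and of 7.61, 7.91 and 7.90 in WT livers. Both genes overlapped between genotypes. The differences were 0.006 (95% interval -0.37 to 0.38, limma adjusted p = 0.991) for Abcb11 and 0.04 (95% interval -0.26 to 0.35, limma adjusted p = 0.892) for Slco1b2. The 6 livers spanned 1.39-fold for Abcb11 and 1.23-fold for Slco1b2, against 1.56-fold for the median gene.

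For Slc10a1, the sodium-dependent uptake carrier NTCP, the probes disagreed. The probe with the higher mean signal read 9.39, 8.55 and 8.76 for the KI livers and 8.13, 9.09 and 8.89 for the WT livers, with the extremes at KI mouse A and WT mouse D. Its difference was 0.20 (SE 0.32, limma adjusted p = 0.793). The second probe read 5.26, 5.61 and 5.49 for KI and 6.19, 5.85 and 5.96 for WT livers, and here every KI liver lay below every WT liver. That difference was -0.55 (SE 0.15, 95% interval -0.92 to -0.18), and its limma p was 0.00964 before and 0.380 after adjustment. The mice that were highest and lowest on the first probe, A and D, were lowest and highest on the second.

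Of the sensors, Nr1h4 had levels of 5.24, 5.14 and 5.22 in KI and of 5.34, 5.30 and 5.51 in WT livers. The groups did not overlap, but KI mouse A and WT mouse E were close. The difference was -0.19 (SE 0.12, 95% interval -0.47 to 0.10, limma adjusted p = 0.522), it was -0.12 without WT mouse F, and only 7.36% of genes had a smaller SD within a genotype than the 0.09 of Nr1h4. Nr0b2 had levels of -1.59, -0.75 and 1.19 in KI and of -0.24, 1.31 and 1.23 in WT livers. Livers C, E and F were high and A, B and D low, a split that crossed the genotypes. The difference was -1.15 (SE 0.76, limma adjusted p = 0.535), it was -0.55 without KI mouse A and -1.94 without KI mouse C, and the 6 livers spanned 7.45-fold. Its spread within a genotype exceeded that of 98.7% of genes. Livers C and E, with high Nr0b2, had the lowest Cyp7a1 levels, while liver F was high in both.

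Several of these genes are known to follow the daily clock and feeding, and the hour of tissue collection is not given in the sources used here. Of 17 clock genes, 15 were tested in liver and 0 passed the threshold. At an unadjusted p under 0.05, 3 were lower in KI (Nr1d1 by -0.50, Nr1d2 by -0.38 and Per1 by -0.67) and 0 higher. The share of all liver genes at that cut, in either direction, was 11.7%. The smallest limma adjusted p among the clock genes was 0.389. The part of the clock genes and of the Kupffer cell markers in the differences above was not tested.

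**Figure D2:**
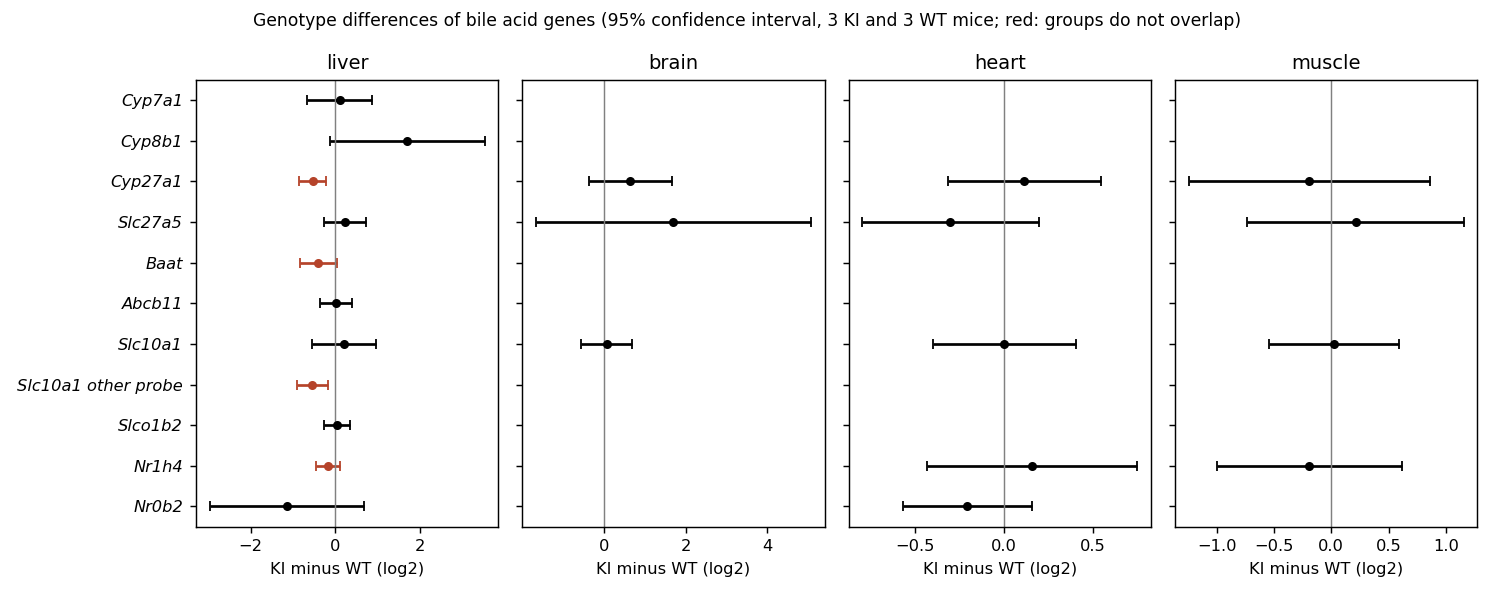
KI minus WT difference (log2, 95% confidence interval, 3 KI and 3 WT mice) of each bile acid gene in the tissues where it was tested, with a separate scale for each tissue. Red marks genes whose genotypes do not overlap, which are Cyp27a1, Baat, Nr1h4 and the second Slc10a1 probe in liver, and 0 genes in the other tissues.

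Outside liver the number of the 10 genes that could be tested fell, because a gene had to be well above background on all 3 arrays of a genotype. In brain Cyp27a1, Slc27a5 and Slc10a1 were tested, in heart these 3 with Nr1h4 and Nr0b2, and in muscle the same 3 with Nr1h4. Slc10a1 was tested there on its first probe only. Its second probe was well above background on 1 of 6 brains, 1 of 6 hearts and 0 of 6 muscles. The second Slc27a5 probe could be tested in brain but not in heart or muscle. At the adjusted threshold 0 of the genes tested passed, against 0.00% of all genes in brain, 0.00% in heart and 0.00% in muscle. At an unadjusted p under 0.05 there were also 0, against 0.790%, 1.64% and 0.851% of all genes in brain, heart and muscle. The genotypes overlapped for each of them, where 2.86%, 5.02% and 3.54% of all genes did not. The smallest unadjusted limma p was 0.175 in brain, 0.192 in heart and 0.593 in muscle.

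The largest of these differences was that of Slc27a5 in brain. It read -2.21 in KI brain A, -2.97 in B and 2.90 in C, and -2.62 in WT brain D, -2.46 in E and -2.31 in F. The brain of KI mouse C stood alone and the other 5 brains lay together. The difference was 1.70 (SE 1.42, limma adjusted p = 1.00) and -0.13 without KI mouse C.

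Cyp27a1 had brain levels of -3.43, -3.26 and -2.80 in KI and of -4.52, -2.83 and -4.07 in WT mice, a difference of 0.65 (SE 0.43). It was 0.29 without WT mouse D and 1.13 without WT mouse E. In heart the difference was 0.11 (SE 0.18) and in muscle -0.19 (SE 0.44), and the limma adjusted p was 1.00, 0.971 and 1.00 in brain, heart and muscle. The groups overlapped in these 3 tissues, unlike in liver. Whether a genotype effect differed between tissues was asked with an F-test over the 24 arrays. Of the 10 genes 0 passed, against 0.00% of 17299 genes, and Cyp27a1 had a limma p of 0.199 before and 1.00 after adjustment, so the liver difference of Cyp27a1 was not shown to differ from that in other tissues.

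Where the pathway is expressed was read across the 4 tissues. The counts below are descriptions for Cyp7a1, Cyp8b1, Baat, Abcb11 and Slco1b2, which were well above background on all arrays of a group in liver alone and so entered the comparison through liver. In the fit of the 24 arrays, 10 of the 10 genes were higher in liver than in brain, against 45.7% of 17299 genes, and Slc10a1 turned lower under quantile normalization. Higher in liver than in heart were 9, against 35.1% of genes, and higher than in muscle were also 9, against 35.3%. Slc10a1, on its first probe, was the exception in heart and muscle.

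**Figure D3:**
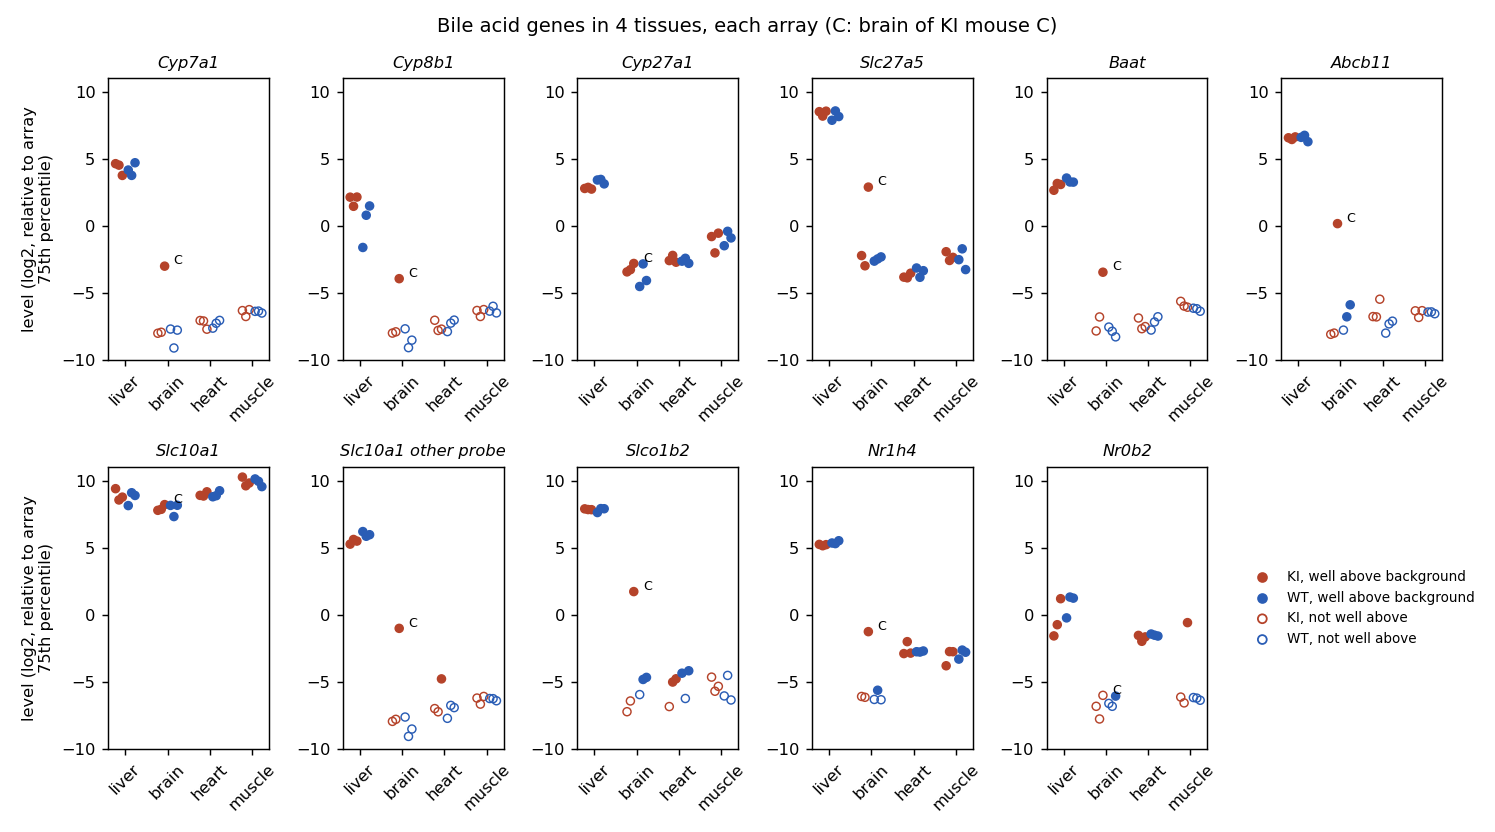
Level (log2, relative to the array's 75th percentile) of each bile acid gene on all 24 arrays, with filled points well above background and open points not. The liver mean is the highest in each panel but that of the first Slc10a1 probe, and the brain of KI mouse C, marked C, stands above the other brains for Cyp7a1, Cyp8b1, Slc27a5, Baat, Abcb11, the second Slc10a1 probe, Slco1b2 and Nr1h4.

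Cyp7a1 was not well above background on any heart or muscle array, and its liver mean was at least 817-fold higher than heart and at least 429-fold higher than muscle. These bounds set each dim array at the lowest level of any probe well above background there, or at the gene's own reading if higher. That lowest level is not a detection limit of the gene's own probe. Cyp8b1 was likewise at least 89.4-fold and 46.9-fold higher in liver than in heart and muscle, and Baat at least 383-fold and 201-fold. For Abcb11 the bounds were 3935-fold and 2091-fold, and for Slco1b2 at least 5068-fold against muscle. Slco1b2 was well above background on 4 of 6 hearts, at levels between -5.03 and -4.19, against 7.83 on average in liver.

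In brain, the same genes appeared on the array of KI mouse C. Cyp7a1 had a level of -3.0 there, well above background, and at most -7.69 in the other brains, where it was not. As a share of the mean liver level, the brain of KI mouse C held 0.650% for Cyp7a1, 3.11% for Cyp8b1, 1.01% for Baat, 2.34% for Slc27a5, 1.20% for Abcb11, 1.45% for Slco1b2 and 1.06% for Nr1h4. On each of these 7 genes this array lay above the other 5 brains, as it did for 12 of 12 hepatocyte markers. The shares of the markers ran from 0.890% to 27.6% with a median of 2.61%. Ttr, with the highest share, read at most 6.93 in the other brains and only 6.99 on this array. The second Slc10a1 probe read -1.02 there, or 0.930% of liver, and was not well above background in the other brains.

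Without that array, Cyp7a1 was at least 1515-fold, Baat at least 710-fold and Cyp8b1 at least 166-fold higher in liver than in brain. Abcb11 and Slco1b2 were well above background in the brains of WT mice E and F too, at -6.78 and -5.88 for Abcb11 and at -4.83 and -4.68 for Slco1b2, far below liver. For Cyp27a1 the level in the brain of KI mouse C, -2.80 or 1.71% of liver, was only just above that of WT mouse E, -2.83. The first Slc10a1 probe was also just above the other brains there, at 8.21 against at most 8.16. Nr0b2 read -6.02 there, not well above background, against at most -6.07 in the other brains.

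Cyp27a1 was well above background on all 24 arrays. Its mean was 3.07 ± 0.32 in liver, -1.02 ± 0.61 in muscle, -2.55 ± 0.21 in heart and -3.48 ± 0.69 in brain (SD, n = 6 each). Each neighbouring pair in this order differed past the threshold. Liver minus muscle was 4.09 (SE 0.27, limma adjusted p = 5.38e-11), heart minus muscle -1.53 (SE 0.27, adjusted p = 7.33e-05) and brain minus heart -0.93 (SE 0.27, adjusted p = 0.00415). The differences passed for 64.7% of genes between heart and muscle, for 79.3% between brain and heart and for 82.1% between brain and muscle. Slc27a5, on its first probe, was also measured everywhere. It lay at 8.31 ± 0.28 in liver, -1.61 ± 2.23 in brain, -2.39 ± 0.54 in muscle and -3.59 ± 0.30 in heart (SD, n = 6 each). Its second probe was well above background on only 3 of 6 hearts and 4 of 6 muscles. On the first probe, brain minus muscle was 0.77 (SE 0.64, limma adjusted p = 0.272). Without the brain of KI mouse C it was -0.14 (SE 0.24, adjusted p = 0.585). Heart minus muscle was -1.20 (SE 0.64, limma adjusted p = 0.111). The brain of KI mouse C also sets the error of this contrast, because the fit shares its spread over tissues, and without that array the same difference passed the threshold (SE 0.22, adjusted p = 0.000142).

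Nr1h4 was well above background on all heart and muscle arrays and on 2 of 6 brains. Its mean was 5.29 ± 0.13 in liver, -2.68 ± 0.33 in heart and -3.02 ± 0.46 in muscle (SD, n = 6 each). Liver exceeded heart by 7.97 (SE 0.57) and muscle by 8.31 (SE 0.57). Heart minus muscle was 0.34 (SE 0.57, limma adjusted p = 0.617), and without the brain of KI mouse C its SE was 0.20 and its adjusted p 0.139.

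Nr0b2 was the gene with the smallest step between liver and another tissue, apart from Slc10a1. Its heart levels lay between -1.99 and -1.45, well above background on 6 of 6 arrays and next to the lowest liver, while the livers ran from -1.59 to 1.31. Liver exceeded heart by 1.82 (SE 0.74, limma adjusted p = 0.0337). This call rested on single mice: it was lost without mouse B (1.85, adjusted p = 0.0501), D (2.09, 0.0531), E (1.68, 0.120) or F (1.69, 0.119). In muscle Nr0b2 was well above background in 1 mouse, KI mouse C, at -0.60, while the other 5 muscles read -6.58 to -6.15. In brain it was well above background on 1 of 6 arrays.

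The probes of Slc10a1 gave opposite pictures across tissues. The first had means of 7.91 ± 0.34 in brain, 8.80 ± 0.44 in liver, 8.97 ± 0.18 in heart and 9.88 ± 0.28 in muscle (SD, n = 6 each), with every array well above background. On it liver was above brain by 0.89 (SE 0.20, limma adjusted p = 0.000421), did not differ from heart beyond the spread (-0.16, adjusted p = 0.474) and was below muscle by -1.08 (SE 0.20, adjusted p = 7.13e-05). Under quantile normalization liver was below brain on this probe (-0.55, adjusted p = 0.000347) and below heart (-0.51, adjusted p = 0.000905). The second probe read 5.72 ± 0.34 in liver (SD, n = 6) and was not well above background on any muscle array, on 5 of 6 brains or on 5 of 6 hearts. It put liver at least 1179-fold above muscle. Both probes carry the same RefSeq accession, and which one follows the Slc10a1 transcript was not tested.

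The tissue patterns were also used to find the genes most like Cyp7a1, Cyp27a1 and Nr1h4 over the 8 group means, each centred on its own mean. Nearest to Cyp7a1 were Ugt2b1, Rdh16 and F13b, with root mean square differences of 0.17, 0.19 and 0.20 (log2). Nearest to Nr1h4 were F7, Tfpi2 and Ces1e, at 0.24, 0.46 and 0.50. Nearest to Cyp27a1, with its graded pattern, were Pecr, 4931408D14Rik and Gm45941, at 0.31, 0.35 and 0.37. The brain means include KI mouse C, and low values outside liver are near background for Cyp7a1.

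Another 47 genes of the pathway were read from lists of synthesis, transport and control. In liver 42 were tested and 0 passed the threshold, with a smallest limma adjusted p of 0.358. At an unadjusted p under 0.05 there were 6 (14.3%), 5 lower and 1 higher in KI, near the 11.7% of all genes. The genotypes did not overlap for 7 (16.7%), near the 19.7% of all genes. Their median difference was 0.06. In brain, heart and muscle 30, 31 and 26 were tested, and 0 passed in each, with 0 at an unadjusted p under 0.05. KI and WT arrays lay apart for 0 in brain, for 3 in heart (9.68%, against 5.02% of all genes) and for 1 in muscle (3.85%, against 3.54%). These were named after their values were seen: Ch25h differed by 0.31, Abcb4 by -0.39 and Mafg by -0.15 in heart, and Gpbar1 by -0.33 in muscle.

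**Figure D4:**
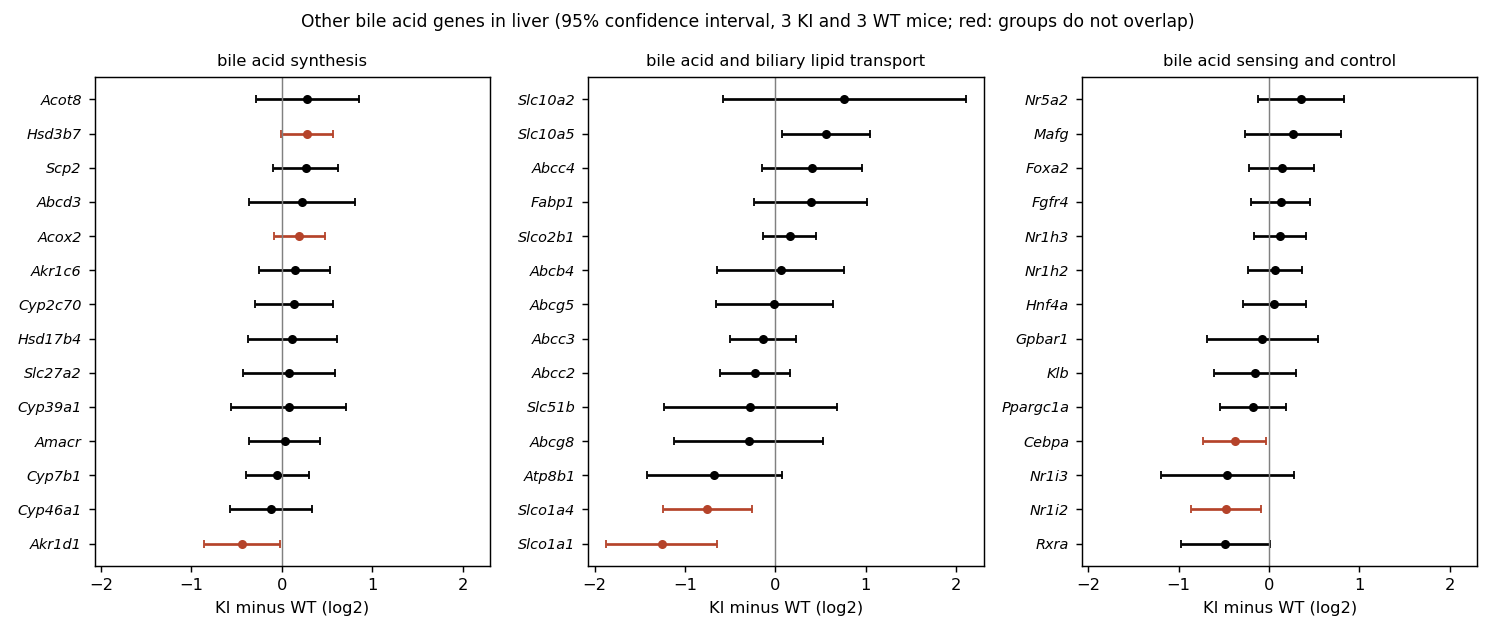
KI minus WT difference in liver (log2, 95% confidence interval, 3 KI and 3 WT mice) of 42 further bile acid genes in 3 lists. Red marks the 7 genes whose genotypes do not overlap, of which Slco1a1 has the largest difference, -1.26.

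Among synthesis genes, 14 of 15 were tested, with a median difference of 0.13, 11 above and 3 below 0. Akr1d1, the reductase that reduces the steroid ring, had levels of 2.74, 2.96 and 3.1 in KI and of 3.37, 3.12 and 3.63 in WT livers. The difference was -0.44 (SE 0.17, limma adjusted p = 0.421), with KI mouse C almost level with WT mouse E. Hsd3b7, which acts early in synthesis, and Acox2, a peroxisomal oxidase of the side chain, lay the other way, at 0.28 (SE 0.12) and 0.20 (SE 0.12), with adjusted p of 0.434 and 0.503.

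Among transporters, 14 of 16 were tested, with a median of -0.08. Slco1a1, an organic anion uptake carrier, was low in these females, at -5.63, -4.63 and -4.94 in KI and -3.74, -3.78 and -3.92 in WT livers. Every KI liver was lower than every WT liver. The difference was -1.26 (SE 0.26) or 2.39-fold (limma adjusted p = 0.358), and 0.00209 was the limma p before adjustment. Its relative Slco1a4 had levels of 2.96, 3.63 and 3.24 in KI and of 4.28, 3.87 and 3.93 in WT livers, again with no overlap, and differed by -0.75 (SE 0.21, limma adjusted p = 0.377). Slco1b2, of the same family, differed by 0.04.

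Among control genes, 14 of 16 were tested, with a median difference of -0.01. Nr1i2 encodes PXR, a xenobiotic receptor that also binds bile acids, and had levels of 2.25, 2.70 and 2.29 in KI and of 3.02, 2.78 and 2.85 in WT livers. It differed by -0.47 (SE 0.16, limma adjusted p = 0.402), with KI mouse B near the lowest WT liver. Cebpa, a hepatocyte transcription factor, differed by -0.38 (SE 0.15, limma adjusted p = 0.410). Fgf15, the intestinal hormone that represses Cyp7a1, was not well above background in any of the 6 livers.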

How the data were processed

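Total RNA of 24 samples was labelled with Cy3 and hybridised to 1-colour Agilent arrays. The authors extracted intensities with Agilent Feature Extraction 12.0.3.1 (per the file headers), and the deposited intensity used was the processed signal, corrected for background but not normalized between arrays. The deposited score table, which held z-scores within each array, was an alternative only. Control spots and outlier spots were left out, spots of a probe were averaged as log2, and the 75th percentile of each array (a signal of 312 to 2519) was subtracted. The probe with the highest mean stood for a gene, and probes with an accession in a GRCm38.p6 gene table were named. Genes well above background on all 3 arrays of a genotype were fitted per tissue with limma 3.58.1 in R 4.3.3 (two-sided, Benjamini-Hochberg), and all arrays in 1 fit for tissues. The fits were tested on simulated data. The number of arrays limits the precision.

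All 10 genes were named, with further bile acid genes whose genotypes did not overlap in liver (at most 5 in each direction) and the 3 genes of nearest pattern. 1 listed gene is not reported here. Members, lists and tests were chosen with earlier results of these data known. Same-numbered arrays came from the same mouse. Deviations from group means correlated by 0.0134 between tissues of 1 mouse and by -0.0061 between tissues of different mice of a genotype. The second value is tied to the first, because deviations from a mean of 3 mice add up to 0. Genotypes share no mouse. Livers shared 1 slide and muscles another, so slide and tissue cannot be told apart between liver and muscle. Brain and heart each lay on more than 1 slide with both genotypes on each. Alternatives covered normalization, background, filter, probes, age, slide (for the genotype comparisons in brain and heart), mouse and single arrays.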

Additional observations from a re-analysis of the deposited data

How the results depend on the processing

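The alternatives gave 443 values, of which 410 held sign and call, or stayed within 1.5 times a count. The other 33 were changes of sign of KI minus WT differences that did not pass the threshold. The tissue calls of single genes are not among these values, and some of them changed. Slc10a1 liver minus brain went from 0.89 to -0.55 under quantile normalization, past the threshold both times. With the mean of all probes, Slc10a1 liver minus heart was 6.15 and passed. Nr0b2 liver minus heart lost its call without mouse B, D, E or F. In liver, quantile normalization gave -0.087 for Abcb11, -0.033 for Slc10a1 and -0.15 for Slco1b2, normexp gave -0.083 for Abcb11, and the mean of all probes gave -0.18 for Slc10a1. The other probe, an alternative chosen after seeing the data, gave -0.55 for Slc10a1 and -0.0040 for Slc27a5 in liver. Slc10a1 gave -0.044 in heart under quantile normalization, and normexp gave 0.030 for Nr1h4 and -0.052 for Slc10a1 in muscle. The cause was not tested.

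Without each liver in turn, the difference ranged from -0.13 to 0.11 for Abcb11, -0.13 to 0.37 for Cyp7a1, -0.086 to 0.39 for Slc10a1 and -0.051 to 0.095 for Slco1b2. In brain it ranged from -0.20 to 0.22 for Slc10a1 and -0.13 to 2.81 for Slc27a5. In heart the ranges were -0.096 to 0.14 for Slc10a1, -0.034 to 0.22 for Cyp27a1, -0.13 to 0.31 for Nr1h4, -0.50 to -0.15 for Slc27a5 and -0.30 to -0.080 for Nr0b2. In muscle they were -0.39 to 0.16 for Nr1h4, -0.16 to 0.17 for Slc10a1, -0.48 to 0.26 for Cyp27a1 and -0.17 to 0.60 for Slc27a5. The signs of Cyp8b1, Cyp27a1, Baat, Nr1h4 and Nr0b2 in liver were the same in the 15 alternatives run for each.

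With the mouse as a replicate block (consensus correlation -0.0014), 0 of the 10 genes passed between genotypes in each tissue. In either direction, 10, 9 and 10 differed between liver and brain, heart and muscle, as without it. The 10 for muscle include Slc10a1, lower in liver on its first probe. Of all 17299 genes, 45.7%, 35.1% and 35.3% were higher in liver, and shares in either direction were not counted. These counts are descriptions for the genes that entered through liver. The block changed no call. Leaving out a mouse gave 8 to 9 for liver against heart, 10 to 10 against brain and muscle, and 0 to 0 for the genotype comparisons and for the difference between tissues. On the deposited scores, Slc10a1 no longer differed between liver and brain (adjusted p = 0.232) and did between liver and heart (adjusted p = 0.0337). With 3 mice per genotype, differences as wide as the intervals given could not be told from 0, and probes near background outside liver give bounds only. Which of these mice were sampled or dissected together is not given in the sources used here.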
